A study of Homo sapiens with 4 samples.

Results

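The mRNAs of 8 protein kinases that act on the splicing machinery were followed in T24, an established human bladder cancer cell line, after treatment with control siRNA (siControl, 2 libraries) or with siRNA against NSUN2, an RNA cytosine methyltransferase (siNSUN2, 2 libraries). The kinases were SRPK1, SRPK2, CLK1, CLK2, CLK3, CLK4, DYRK1A and PRPF4B, found by gene symbol among the 62893 genes of the count table. Each matched 1 gene ID. SRPK1 was selected on its large fall, its log2 fold change in this same comparison, so that change is given as a description without a test. The 7 others were listed as its relatives in function, with earlier results of these data known. All 8 passed the filter on low counts, as did 16889 genes in all. Poly(A) RNA was sequenced as read pairs, and the design compares mRNA levels with and without silencing of NSUN2. The labels give neither the number nor the sequence of the siRNAs, and both groups are a single cell line.

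SR proteins are splicing factors that carry a tail rich in arginine and serine, and the phosphorylation of these serines sets where the proteins sit and what they bind. SRPK1 and SRPK2 phosphorylate SR proteins mainly in the cytoplasm, which lets the import receptor TNPO3 carry them into the nucleus. There the dual-specificity kinases CLK1 to CLK4 phosphorylate them further and release them from nuclear speckles. DYRK1A, a related kinase of nuclear speckles encoded on chromosome 21, also acts on cell cycle and signalling proteins. PRPF4B works on the spliceosome itself, where it phosphorylates components of the U4/U6.U5 tri-snRNP. All 8 belong to the CMGC group of kinases, together with the cyclin-dependent kinases, the MAP kinases, GSK3 and the HIPK family.

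Library totals ran from 33633249 to 215936965 counts, and the scaling factors lay between 0.985 and 1.02. Within a group, the libraries differed beyond counting noise, with a chi-square of 20.5 (siControl) and 13.5 (siNSUN2) per degree of freedom, and nothing in the labels says whether they came from separate cultures. The p-values below therefore reflect no more than how far these libraries lie apart, and that may be technical variation. NSUN2 mRNA stood at 281 and 284 CPM (counts scaled to a common library size) in the siControl libraries and at 29.6 and 30.1 CPM in the siNSUN2 libraries. The cells carried high counts of KRT8, KRT18 and KRT7, whereas EPCAM, CDH1, KRT19, KRT5 and KRT14 had at most 20 counts in any library and UPK3A had 0 in all. The 11 urothelial markers summed to between 18.7 and 25.6 CPM. Mesenchymal markers (VIM, CDH2, ZEB1, FN1) summed to 1540 and 1560 CPM in siControl and to 2530 and 2520 CPM in siNSUN2. At an adjusted p under 0.05, 3 of the 4 (not ZEB1) were called higher, as were 27.1% of all genes tested. The part of these 4 markers in the results below was not tested. Blood and endothelial markers summed to at most 0.701 and 2.37 CPM. In RNA from a whole culture, fewer cells that express a gene and less RNA per cell cannot be told apart.

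The kinases differ in whether their transcripts hold a short word, and these sites are shown first. The 6-base word ACCCTA was known from earlier results of these data to go with lower levels in siNSUN2 cells, so its presence in the kinases is a description and no independent support. The mRNA of NSUN2, the target of the siRNA, itself holds the word in its coding sequence, as AACCCTA, and not in its 3′ UTR. What this means for the word was not tested. In the principal coding transcript of each kinase (GENCODE release 29), the word was found in 3 of the 8: once in the 3′ UTR and once in the coding sequence of SRPK1, once in the coding sequence of SRPK2, and once, in its longer form, in the 3′ UTR of DYRK1A. These are shown 5′ to 3′ as 30 bases of the sense strand around each match, with the word in capitals.
SRPK1, 3′ UTR, from base 751 of 2338: atgtcttctattACCCTAagaccagagtta
SRPK1, coding sequence, from base 404 of 1968: ttcgcaattcagACCCTAatgatccaaata
SRPK2, coding sequence, from base 1121 of 2067: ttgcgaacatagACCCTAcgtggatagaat
DYRK1A, 3′ UTR, word from base 3961 of 13827, with an A on either side: acaagagaagaAACCCTAAgaagatagctt

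Among 12249 coding genes tested with a 3′ UTR of at least 50 bases, 492 (4.02%) had ACCCTA in both parts, as SRPK1 does. Their median log2 fold change was −0.30, and 12 of them lay at or below SRPK1, which was chosen for its fall. The 8150 genes with the word in neither part, to which CLK1, CLK2, CLK3, CLK4 and PRPF4B belong, had a median of 0.12. Of these, 32 lay at or below SRPK1. SRPK1 also belongs to the 1466 genes with ACCCTA but not AACCCTA in the 3′ UTR, whose median was −0.08. The 1808 genes with the word in the coding sequence but not the 3′ UTR, like SRPK2, had a median of −0.11. The 270 genes with AACCCTAA in the 3′ UTR had a median of −0.43. These classes also differ in GC content, which fold changes followed. Its median was 44.0% with the word in both parts, 43.3% with AACCCTAA and 49.3% with the word in neither. It was 46.7% with ACCCTA but not AACCCTA in the 3′ UTR, and 46.9% for the class of SRPK2. The part of GC content in these medians was not tested. DYRK1A is 1 of the 34 of these 270 genes (12.6%) that were called higher, against 164 (60.7%) called lower. Of all genes tested, 27.1% were called higher and 25.5% lower. In CLK4 the choice of transcript mattered, since a transcript with a longer 3′ UTR and a short coding sequence holds AACCCTAA.
CLK4, 3′ UTR of that transcript, word from base 1074 of 1440: taaatacaaaaAACCCTAAggcttaacgtc

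The kinases did not move as a block. SRPK1 was far lower in siNSUN2 cells, its closest relative SRPK2 differed little, the 4 CLK mRNAs and DYRK1A were moderately higher, and PRPF4B was lower. Besides SRPK1, which was chosen for its fall, 1 of the other 7 kinases was called lower and 5 higher at an adjusted p under 0.05 (edgeR's quasi-likelihood test with Benjamini-Hochberg adjustment over all genes). Of all genes tested, 25.5% were called lower and 27.1% higher. The groups did not overlap in CPM for any of the 8 kinases, as for 74.6% of all genes, so that this alone says little about them. The median log2 fold change of the 8 was 0.22, against 0.03 for all genes tested.

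**Figure D1:**
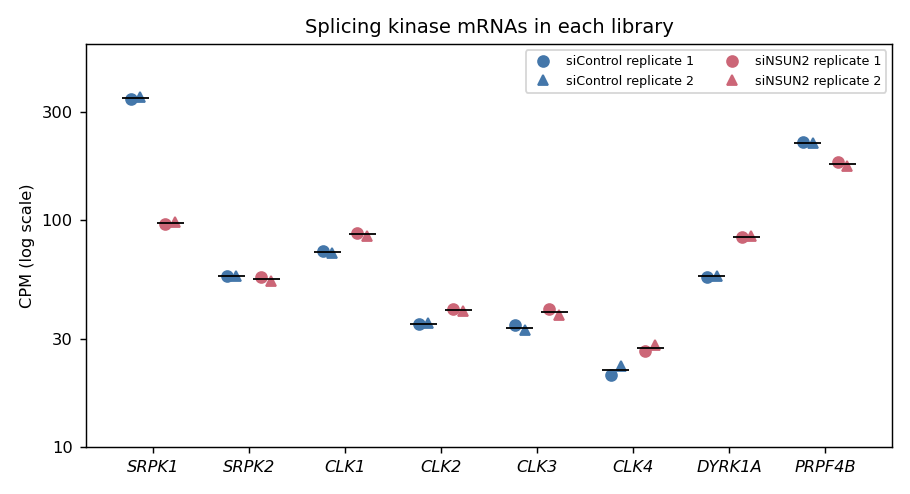
Scaled CPM (log axis) of the 8 kinase mRNAs in each of the 4 libraries, with black lines at the group means. SRPK1 drops from 345 and 348 CPM to 96.0 and 98.4 CPM, while the SRPK2 libraries lie between 54.1 and 57.0 CPM and the CLK and DYRK1A points shift upward.

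SRPK1 (ENSG00000096063), the main cytoplasmic SR protein kinase, stood at 345 CPM in siControl replicate 1 and 348 CPM in siControl replicate 2. It stood at 96.0 CPM in siNSUN2 replicate 1 and 98.4 CPM in siNSUN2 replicate 2. Both siNSUN2 libraries lay far below both controls, and the libraries of a group differed by a few percent. The log2 fold change was −1.83 (SE 0.040), which leaves 28.0% of the control level, a 3.57-fold difference. The values behind it were between 3369 and 74120 counts per library. With any 1 library left out the log2 fold change lay between −1.91 and −1.82, and it was −1.73 (rounded from −1.735) after the trends with GC content and transcript length had been removed from each library.

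SRPK2 (ENSG00000135250), which shares substrates with SRPK1 and is best known from neurons, stood at 57.0 and 56.9 CPM in siControl cells. In siNSUN2 cells it stood at 56.1 and 54.1 CPM, just below the controls. Its log2 fold change was −0.05 (SE 0.043, adjusted p = 0.413 with edgeR), and 2 SE on either side span −0.13 to 0.04. In this same fit, the log2 fold change of each of the other 7 kinases lies outside this interval. The sign of SRPK2 was not stable, since its log2 fold change was 0.14 (adjusted p = 0.028 with edgeR) with GC and length trends taken off. There SRPK2 was no longer the kinase that changed least, as CLK2 stood at 0.10 and PRPF4B at −0.10. Over all alternatives the adjusted p lay between 0.028 and 0.871.

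The balance of the SRPK pair differed between the groups, which mostly restates the fall for which SRPK1 was chosen. Per kilobase of the longest annotated transcript, SRPK1 mRNA was 4.70 and 4.76 times as abundant as SRPK2 mRNA in the siControl libraries. It was 1.33 and 1.41 times as abundant in the siNSUN2 libraries. SRPK1 remained the more abundant of the pair in all 4 libraries. SRPK3, the other member of the family, a kinase of striated muscle, had 0, 0, 1 and 0 counts in siControl replicates 1 and 2 and siNSUN2 replicates 1 and 2, and was not tested.

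The 4 CLK mRNAs were all called higher, by amounts that depended on the correction for GC content and transcript length. CLK1 (ENSG00000013441), whose own pre-mRNA is spliced under CLK activity, stood at 73.1 and 71.5 CPM in siControl and at 88.3 and 85.6 CPM in siNSUN2 cells. Its log2 fold change was 0.27 (SE 0.042, adjusted p = 5.02e-04 with edgeR). CLK4 (ENSG00000113240), the closest paralog of CLK1 and the least abundant CLK in CPM, stood at 20.9 and 22.8 CPM in siControl and at 26.6 and 28.1 CPM in siNSUN2 cells. Both siNSUN2 libraries were above both controls for either gene. The log2 fold change of CLK4 was 0.32 (SE 0.0665, adjusted p = 0.00281 with edgeR), and without siControl replicate 1 it was 0.19 and narrowly missed the threshold (adjusted p = 0.0502, range over the alternatives 3.07e-06 to 0.0502). With GC and length trends taken off, CLK1 was at 0.55 and CLK4 at 0.59, about as high as DYRK1A.

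CLK2 (ENSG00000176444), a CLK also known from the control of liver metabolism, stood at 34.9 and 35.2 CPM in siControl and at 40.7 and 39.9 CPM in siNSUN2 cells. CLK3 (ENSG00000179335), the form most studied in germ cells, stood at 34.5 and 32.7 CPM in siControl and at 40.7 and 38.1 CPM in siNSUN2 cells. In both genes the siNSUN2 libraries were the higher ones. The log2 fold changes were 0.20 (SE 0.047, adjusted p = 0.0051 with edgeR) for CLK2 and 0.23 (SE 0.055, adjusted p = 0.00581) for CLK3. CLK2 was no longer called with GC and length trends taken off, at 0.10 (adjusted p = 0.128), or when siControl replicate 1 was left out, at 0.13 (adjusted p = 0.14), in a range from 4.08e-04 to 0.14. That of CLK3 was lost without siNSUN2 replicate 1, at 0.18 (adjusted p = 0.0566, the highest of a range from 6.95e-05).

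The 4 CLK genes lay between 0.20 and 0.32 on the log2 scale, with standard errors of 0.042 to 0.0665, and the differences among them were not tested. With GC and length trends taken off they spread from 0.10 (CLK2) and 0.21 (CLK3) to 0.55 (CLK1) and 0.59 (CLK4). The summed CPM of the 4 was 163 and 162 in the siControl libraries and 196 and 192 in the siNSUN2 libraries. In values not corrected for GC and length trends, ratios within the family moved little. Per kilobase of the longest transcript, CLK1 was 1.77 and 1.71 times as abundant as CLK2 in siControl and 1.83 and 1.81 times in siNSUN2 libraries. The ratio of CLK1 to CLK4 was 4.07 and 3.64 in siControl and 3.86 and 3.53 in siNSUN2 libraries, so that the groups overlapped.

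DYRK1A (ENSG00000157540) had the largest rise of the 8. It stood at 56.3 and 56.7 CPM in siControl cells and at 84.2 and 85.1 CPM in siNSUN2 cells. The groups were far apart relative to the spread within them. The log2 fold change was 0.58 (SE 0.040, adjusted p = 2.67e-06 with edgeR), a 1.498-fold difference. It was between 0.51 and 0.59 with any 1 library left out and 0.61 with GC and length trends taken off. Its relatives behaved in different ways. DYRK2, a kinase of p53 and of other substrates, fell slightly, from 21.8 and 22.3 to 19.1 and 19.1 CPM (log2 fold change −0.21, adjusted p = 0.0154 with edgeR). That call was lost without siControl replicate 2, without either siNSUN2 library, with GC and length trends taken off and in 2 further alternatives. DYRK1B, DYRK3 and DYRK4 had log2 fold changes of 0.42, 0.22 and −0.27 at low levels, and none was called (adjusted p = 0.123, 0.0851 and 0.202 with edgeR). DYRK1B was called higher with limma-voom (0.47, adjusted p = 0.0388) but stood at −0.26 with GC and length trends taken off, where DYRK3 was called higher (0.30, adjusted p = 0.0413 with edgeR).

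PRPF4B (ENSG00000112739), the kinase of the tri-snRNP, was lower. It stood at 221 and 219 CPM in siControl and at 181 and 173 CPM in siNSUN2 cells. Both siNSUN2 libraries were below both controls. The log2 fold change was −0.31 (SE 0.040, adjusted p = 1.45e-04 with edgeR), and −0.37 to −0.27 with any 1 library left out. With GC and length trends taken off it was −0.10 and no longer called (adjusted p = 0.0893, the highest of a range from 4.36e-14).

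**Figure D2:**
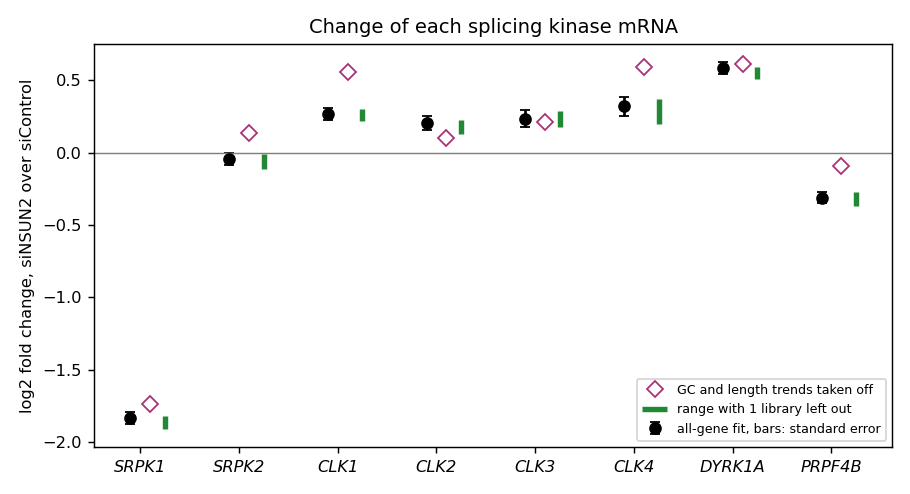
Log2 fold change (siNSUN2 over siControl) of each kinase with its standard error (black), with GC content and transcript length trends taken off (open diamonds), and as the range over fits with 1 library left out (green). SRPK1 stays between −1.91 and −1.73, CLK1 and CLK4 move up to 0.55 and 0.59 with the correction, and PRPF4B moves to −0.10.

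Over all genes, fold changes followed GC content. When genes were split into 5 equal classes by GC content of the longest transcript, the lowest class had a median log2 fold change of −0.22, and 45.9% of its genes were called lower. In the highest class the median was 0.51 and 6.29% were called lower. CLK1, CLK4 and PRPF4B, with 35.7%, 36.2% and 37.5% GC, belong to the lowest class. CLK1 and CLK4 thus were higher in a class in which 13.2% of the genes were called higher, whereas PRPF4B lay near the median of its class. SRPK1 (45.0%), SRPK2 (41.6%) and DYRK1A (42.2%) belong to the next class, which had a median of −0.15. CLK3 (46.5%) lay in the middle class, with a median of −0.04, and CLK2 (52.3%) in the one above it, whose median of 0.16 was close to its own 0.20. The GC content of CLK3 depends on the transcript. Its longest one has 10498 bases, and both the class and the correction used it. The principal one has 1846 bases, with 55.7% GC in the coding sequence and 53.1% in the 3′ UTR.

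**Figure D3:**
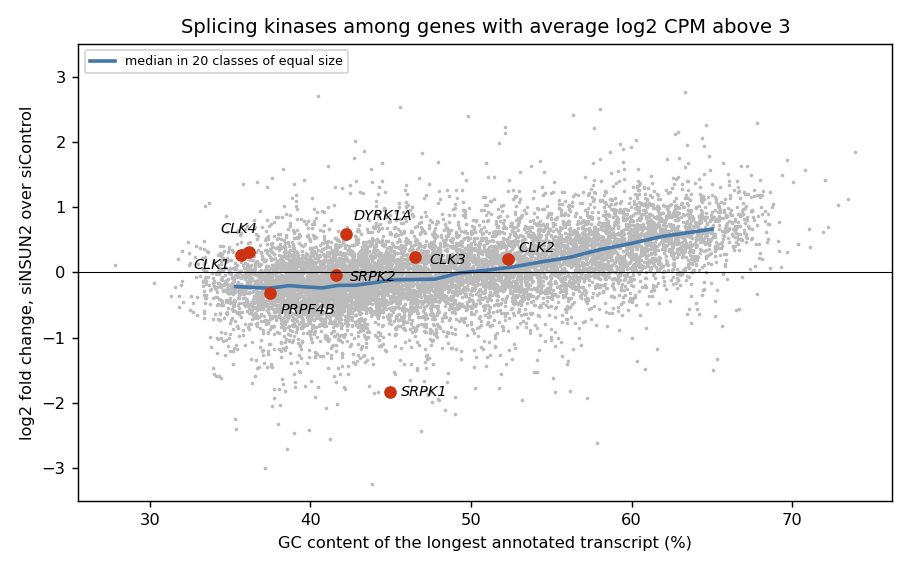
Log2 fold change (siNSUN2 over siControl) against GC content of the longest annotated transcript for 9591 genes with average log2 CPM above 3 (grey), with the median in 20 classes of equal size (blue) and the 8 kinases (red). SRPK1 lies at −1.83, far under the blue line, DYRK1A, CLK1 and CLK4 lie above it, and CLK2 and PRPF4B lie close to it.

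Levels of different kinases were compared per kilobase of the longest annotated transcript. In siControl cells SRPK1 led with 72.8 RPKM (scaled CPM per kilobase), followed by PRPF4B at 32.5, CLK1 at 22.5, SRPK2 at 15.4, CLK2 at 13.0 and CLK4 at 5.87. DYRK1A (3.22) and CLK3 (3.20) came last, with overlapping libraries. Below CLK1 the order depends on the transcript. With the median length of coding transcripts, DYRK1A stood at 19.6, CLK2 at 16.5, SRPK2 at 15.6, CLK3 at 15.02 and CLK4 at 11.3 RPKM. With the principal transcript, CLK3 and CLK2 (18.2 and 18.1) stood above SRPK2 (15.4), CLK4 (8.50) and DYRK1A (3.22). In siNSUN2 cells CLK1 led with 27.5 and 26.7, and PRPF4B was next with 26.7 and 25.6, hardly separated from it. SRPK1 came next at 20.4 on this scale, and had rank 4 with the median coding length or the principal transcript. In CPM, SRPK1 held 40.9% and 41.3% of the sum over the 8 kinases in the siControl libraries and 15.7% and 16.3% in the siNSUN2 libraries. The sum itself was 843 CPM in both siControl libraries and 613 and 603 CPM in the siNSUN2 libraries. SRPK1 was chosen for its fall, so the lower share and the lower sum mostly restate that fall. They are no separate result about the kinases as a family.

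The pseudogenes named after these kinases, PRPF4BP1, CLK2P1, SRPK2P and CLK3P2, had at most 15 counts in any library. They were found by name, and copies under other names were not searched for. In GENCODE release 29, the exons of SRPK1 overlap those of LHFPL5 on the opposite strand over 265 bases, 3.96% of its exonic bases, and LHFPL5 had 9 to 56 counts. SRPK2 overlaps KMT2E over 98 bases and CLK3 overlaps EDC3 over 701 bases, both on the opposite strand, and KMT2E and EDC3 had at least 2371 and 2267 counts. The library kit marks strand, but no source used here states how the counting treated it, so reads in these overlaps are uncertain. CLK1 and CLK4 are paralogs, and how reads that fit both were counted is not stated either.

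For the promoters, RefSeq sequences (GRCh38.p14, 250 bases before to 50 after each start) were available for all 8 kinases, 18 starts in all. They were searched on both strands for the E-box CACGTG, the CCAAT box CCAAT, the GC box GGGCGG and the cAMP response element TGACGTCA. Over all 35116 promoters, 7.26%, 34.6%, 45.0% and 1.85% hold these. The only SRPK1 promoter has 4 GC boxes and none of the other motifs. CLK4 and CLK2 have 1 E-box and 2 GC boxes each, and both CLK1 starts have 2 GC boxes and no E-box. Of the 4 SRPK2 starts, 1 has 6 GC boxes and the others have none of the motifs. Of the 6 DYRK1A starts, 3 have 2 or 3 GC boxes, 1 of these also an E-box, 2 have a CCAAT box and 1 has no motif. CLK3 has 2 CCAAT boxes at 1 start and 2 GC boxes at the other, and PRPF4B has 1 CCAAT box and 1 GC box. A match is only a match of letters. Shown are the 250 bases before the start of SRPK1 and of the paralogs CLK1 and CLK4, on the minus strand, with the motifs in capitals.
SRPK1, chr6:35921099-35921348: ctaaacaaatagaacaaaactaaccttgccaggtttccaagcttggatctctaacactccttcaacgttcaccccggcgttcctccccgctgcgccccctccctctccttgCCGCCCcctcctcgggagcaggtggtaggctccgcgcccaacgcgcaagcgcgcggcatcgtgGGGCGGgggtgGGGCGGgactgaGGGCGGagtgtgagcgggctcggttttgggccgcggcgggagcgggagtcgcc
CLK1 (the farther upstream of its 2 starts), chr2:200864659-200864908: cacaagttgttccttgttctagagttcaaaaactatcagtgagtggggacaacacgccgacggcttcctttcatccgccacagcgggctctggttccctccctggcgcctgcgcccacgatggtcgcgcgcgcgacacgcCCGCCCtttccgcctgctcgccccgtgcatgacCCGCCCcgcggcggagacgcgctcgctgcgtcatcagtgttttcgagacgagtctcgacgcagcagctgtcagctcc
CLK4, chr5:178627051-178627300: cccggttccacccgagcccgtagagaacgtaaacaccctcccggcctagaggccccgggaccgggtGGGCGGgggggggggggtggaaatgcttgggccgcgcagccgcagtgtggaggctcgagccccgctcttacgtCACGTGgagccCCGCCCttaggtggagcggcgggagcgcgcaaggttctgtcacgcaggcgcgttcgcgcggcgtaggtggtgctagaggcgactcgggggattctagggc

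The genes most like SRPK1 over the 4 libraries, by the distance of log2 CPM values centred on each gene's mean among 6323 genes with average log2 CPM of at least 5, were PXDN (distance 0.0295), ZNF37A (0.0579) and EIF3M (0.0585). PXDN, which encodes an extracellular matrix peroxidase, stood at 56.4 and 55.6 CPM in siControl and 15.5 and 16.0 CPM in siNSUN2 cells. EIF3M, a subunit of the initiation factor eIF3, went from 389 and 389 to 113 and 113 CPM. The zinc finger gene ZNF37A went from 64.7 and 65.3 to 17.8 and 19.2 CPM, and its reads may be shared with related zinc finger genes. ACCCTA is in the coding sequence of PXDN, in both parts of ZNF37A and in neither part of EIF3M. With 4 libraries in 2 groups, this likeness mostly reflects a fold change of similar size.

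The substrates of the kinases were examined by lists drawn up with earlier results of these data known. The SR proteins and the related TRA2 factors were slightly lower or not called: of 13 tested, 7 were lower, 0 higher and 6 not called (median log2 fold change −0.18, rounded from −0.185, against 0.03 for all genes). At an adjusted p under 0.05, 25.5% of all genes were lower. TRA2B fell from 330 and 322 to 250 and 243 CPM (log2 fold change −0.40, SE 0.039, adjusted p = 2.32e-05 with edgeR). SRSF10, an SR protein that represses splicing when dephosphorylated, fell by 0.30 and SRSF11 by 0.28 on the log2 scale. With GC and length trends taken off the median was −0.01, SRSF10 and SRSF11 were no longer called (−0.09 and −0.02), and TRA2B alone was called lower (−0.20), while SRSF4 and SRSF5, named after their values were seen, were called higher (0.14 each).

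Other proteins with arginine- and serine-rich regions went both ways: of 26, 6 were higher, 8 lower and 12 not called (median −0.02, and −0.09 with GC and length trends taken off). These shares are near those of all genes, 27.1% higher and 25.5% lower. BCLAF1, a speckle protein that binds RNA, fell by 0.54 (adjusted p = 5.85e-06 with edgeR), and LUC7L3, related to a U1 snRNP factor, fell by 0.46 on the log2 scale, and they stood at −0.33 (from −0.325) and −0.25 with GC and length trends taken off. SCAF1 was higher, at 0.73, but stood at −0.09 and was not called with the correction. SNRNP70 and U2AF2, named after their values were seen, turned from called higher (0.14 and 0.17) to called lower (−0.46 and −0.32, from −0.315). Without siControl replicate 1, 3 were higher and 12 lower.

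The proteins of the tri-snRNP, on which PRPF4B acts, were mostly lower: 13 of 18 were lower, 1 (PRPF6, at 0.13, named after its value was seen) was higher and 4 were not called, against 25.5% lower and 27.1% higher among all genes. Their median was −0.20, and −0.33 with GC and length trends taken off, when 13 were lower and 0 higher. PRPF4, a U4/U6 protein whose name resembles that of the kinase but which is no kinase, fell from 144 and 142 to 95.1 and 94.1 CPM (log2 fold change −0.60, SE 0.040, adjusted p = 2.11e-06 with edgeR). SNU13, which binds the U4 RNA, fell by 0.60 and ZMAT2 by 0.56 on the log2 scale. The call of PRPF6 was lost in 7 of the 15 alternatives, among them those without siControl replicate 1 and without siNSUN2 replicate 1. With GC and length trends taken off PRPF6 turned to −0.17 (from −0.175, adjusted p = 0.0124 with edgeR) and was among the 13 lower genes.

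**Figure D4:**
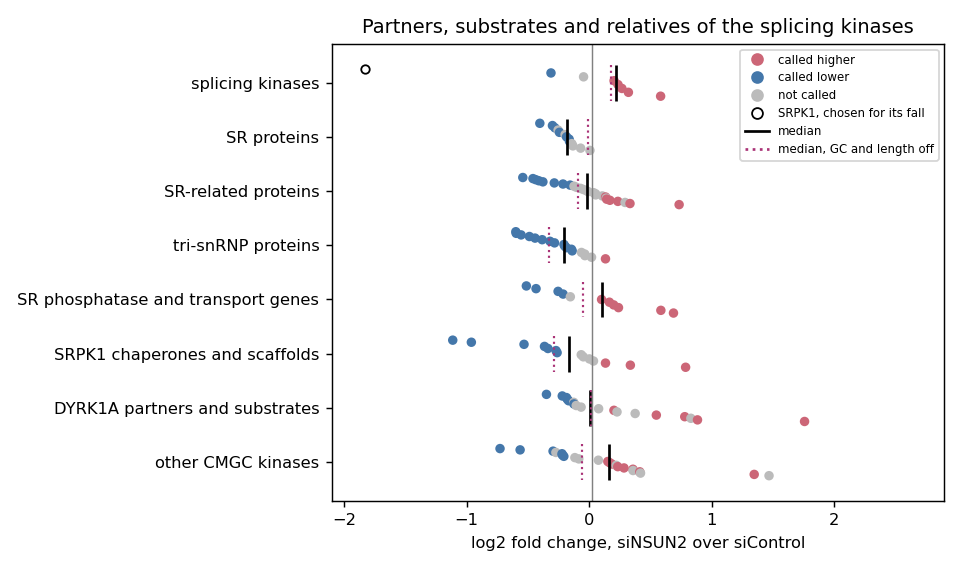
Log2 fold change (siNSUN2 over siControl) of each tested gene of the kinases and of 7 lists of partners, substrates and relatives, with medians as black lines and medians with GC and length trends taken off as dotted lines; the grey line is the median of all genes tested, 0.03. Of the tri-snRNP genes 13 of 18 are lower, and SR proteins lie between −0.40 and 0.01.

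Genes for the phosphatases and carriers that meet SR proteins were mixed, with 6 of 11 higher, 4 lower and 1 not called (median 0.10, and −0.05 with the correction), against 25.5% lower and 27.1% higher among all genes. The catalytic subunits of protein phosphatase 1 moved apart: PPP1CA rose from 149 and 155 to 227 and 229 CPM (log2 fold change 0.59, from 0.585), and 0.15 with GC and length trends taken off, whereas PPP1CC fell from 317 and 321 to 241 and 232 CPM (−0.43, and −0.28 with the trends taken off). PPP1R8, a nuclear inhibitor of that phosphatase, fell by 0.51. TNPO3, the import receptor of phosphorylated SR proteins and named after its value was seen, fell by 0.21 on the log2 scale. Without siControl replicate 1, 3 of the 11 were higher and 5 lower.

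Chaperones and signalling partners of SRPK1 included some of the larger differences. Of 14, 7 were lower, 3 higher and 4 not called (median −0.16, and −0.29, from −0.285, with the correction, when 11 were lower), against 25.5% lower and 27.1% higher among all genes. AKT1 and SAFB2, named after their values were seen, are 2 of the 3 higher genes (0.34 and 0.13) and were called lower with the correction (−0.23, from −0.235, and −0.21). HSP90AA1, a chaperone that holds SRPK1 in the cytoplasm, fell from 4148 and 4066 to 2175 and 2042 CPM (log2 fold change −0.96, SE 0.047, adjusted p = 3.76e-07 with edgeR). CSNK2A1, a catalytic subunit of casein kinase 2, which phosphorylates SRPK1, fell from 298 and 305 to 139 and 139 CPM (−1.11). The other catalytic subunit, CSNK2A2, named after its value was seen, stood at −0.22, and at −0.08 with the correction. PHLPP2, an AKT phosphatase, rose from 40.3 and 42.0 to 72.8 and 69.2 CPM (0.79). HSP90AA1 and CSNK2A1 have processed copies in the genome, so that their counts are less certain.

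Of 18 partners and substrates of DYRK1A, 5 were higher, 6 lower and 7 not called (median 0.01, from 0.005), which is near the 27.1% higher and 25.5% lower of all genes. RCAN1, an inhibitor of calcineurin encoded like DYRK1A on chromosome 21, rose from 40.7 and 42.4 to 78.6 and 74.8 CPM (log2 fold change 0.88, SE 0.047, adjusted p = 5.72e-07 with edgeR). CCND1, the cyclin D1 gene, rose by 0.78 and CDKN1B, which encodes the inhibitor p27, by 0.55 (from 0.548). The count of lower genes was 2 without siNSUN2 replicate 2 and 3 with the correction.

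Among 22 other CMGC kinases tested, 8 were higher, 6 lower and 8 not called (median 0.16, and −0.06 with the correction), and all genes had 27.1% higher and 25.5% lower. HIPK3, a relative of the DYRK kinases, rose from 60.8 and 60.4 to 158 and 150 CPM (log2 fold change 1.35, SE 0.045, adjusted p = 6.83e-08 with edgeR), whereas HIPK2 fell by 0.56. CDK7, the kinase of the transcription factor TFIIH, fell from 73.7 and 72.1 to 45.6 and 42.2 CPM (−0.73). Among those of the 22 that were called, CDK7 had the lowest log2 fold change. CSNK2A1, listed above with the partners of SRPK1, was not among the 22. With the correction 4 were higher, and 3 when siControl replicate 1 was left out.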

How the data were processed

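HISAT2, HTSeq and genome build hg19 are named, per the submitters' processing notes. The authors deposited raw counts per Ensembl gene, 1 column per library; tool versions, annotation and strand setting: not given in the sources used here. Every column was used. Symbols were matched by gene ID (51226 of 62893, and 311 more with GENCODE release 29). Because that annotation is on GRCh38, it was used only through gene IDs, for transcript sequence, GC content and length; the promoters are from RefSeq.

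Sample titles gave the group and the replicate number. All genes were fitted together with edgeR 4.0.16 (R 4.3.3) and its quasi-likelihood test (robust, TMM factors, filterByExpr, no replicate block), two-sided, with Benjamini-Hochberg adjustment over 16889 genes and a threshold of 0.05; it was tested on simulated data. Standard errors come from the F statistic. No permutation test was run with 2 libraries a group. Named genes were the 8 kinases, SRPK3 and other DYRK genes, NSUN2, the 3 called genes of smallest p in each list, and the 3 genes nearest to SRPK1. The members and lists were chosen with earlier results of these data known. Alternatives were DESeq2 1.42.0, limma-voom (limma 3.58.1), non-robust edgeR, other scaling factors and filters, a replicate block, each library left out, thinning, and loess offsets on GC content and transcript length (known for 96.4% of genes tested). The principal transcript length was added after seeing the data.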

Additional observations from a re-analysis of the deposited data

How the results depend on the processing

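Over the 15 alternatives to the all-gene fit, the count of kinases called lower, SRPK1 included, was 2 in every case but 1, with GC and length trends taken off, where PRPF4B was lost and the count was 1. The count called higher was 5, but 3 to 5 when 1 library was left out, with the lowest count without siControl replicate 1. With GC and length trends taken off the count called higher stayed at 5, but SRPK2 (0.14, adjusted p = 0.028 with edgeR) entered. CLK2 (0.10, adjusted p = 0.128 with edgeR) dropped out. The log2 fold change of SRPK1 lay between −1.91 and −1.73. Signs turned for SRPK2, to 0.14 with GC and length trends taken off and to 0.02 (0.021) with all libraries thinned to the shallowest total, for DYRK1B (−0.26, from −0.257) and for SCAF1 (−0.09, from −0.088), both with GC and length trends taken off; the cause was not tested. Under that correction other list genes turned too, among them SRSF5 (−0.07 to 0.14) and, called in both directions, PRPF6, SNRNP70, U2AF2, AKT1 and SAFB2. All genes called lower ranged from 3577 to 4788, and those called higher from 3540 to 5027. With the replicate number as a block (replicate block), 4788 genes were lower and 5027 higher, and 2 and 5 kinases, and it changed no call of a kinase. The numbers share no stated source, and the deviations of the libraries numbered 1 correlated at 0.0878 over 9661 genes, and the reported values use no block. SRPK1 was 4.73 times as abundant as SRPK2 per length in siControl cells, 4.97 times with the median coding length and 4.91 times with the principal transcript. With 2 libraries a group, small changes such as those of the CLK genes rest on few values, whereas depth was ample: the lowest count of a kinase was 886.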
